A study of Mus musculus with 6 samples.

Results

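The cyclins and proliferation genes described here were Ccnd1, Ccnd2, Ccnd3, Cdk4, Cdk6, Ccnb1, Ccna2, Mki67, Top2a and Myc, which are 10 of the 22380 protein-coding genes of the mouse mm9 annotation. They were chosen by name as cell cycle and proliferation genes and not by a rule on measured values, but with earlier results of these data known. Their members in the data were the YTHDC1 LACE-seq peaks that lay inside these genes on the strand opposite to the gene. The deposited strand is that of the cDNA read, so a peak on the opposite strand lies on the strand of the gene's own RNA. LACE-seq maps where an RNA-binding protein was crosslinked to RNA, because reverse transcription stops at the crosslinked nucleotide. Cells of both kinds were wild type in the sense that Ythdc1 was not knocked out, and were used with an antibody against YTHDC1. ASC-48h were mouse satellite cells, sorted from muscle by a fluorescent reporter that the mice carried, and cultured for 48 hr. They gave 4 libraries, since each of the biological replicates (B1, B2) was made into a pair of technical replicates (T1, T2). C2C12 is a mouse myoblast cell line, with 2 libraries made from more cells than the ASC libraries. The sample labels name the C2C12 libraries biological replicates, while the study text names them technical replicates, so the spread between them may be technical only. All 6 libraries carried the antibody, so that no level without it stands beside the values.

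YTHDC1 is the nuclear reader of m6A, the most common internal modification of mRNA, and is known to act in splicing and nuclear export. D-type cyclins (Ccnd1, Ccnd2 and Ccnd3) pair with the kinases Cdk4 and Cdk6 to drive cells through G1, cyclin A2 (Ccna2) acts in S phase and G2, and cyclin B1 (Ccnb1) acts at entry into mitosis. Myc is a transcription factor that drives growth and proliferation, Mki67 encodes the Ki-67 protein of dividing cells, and Top2a encodes the topoisomerase that untangles replicated DNA.

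In C2C12, 9 of the 10 genes held at least 1 shared peak, that is a replicate 1 peak that overlapped a replicate 2 peak on the same strand by at least 1 nt. Across all protein-coding genes the share with a shared peak was 21.9%. The files hold no RNA levels, so this share covers genes that myoblasts may not express, and a number of peaks is not corrected for how much RNA of a gene was present. In these bulk libraries fewer cells that express a gene and less RNA per cell cannot be told apart either. Ccnd2 was the exception, with no peak in any of the 6 libraries. The 10 genes held 112 peaks in replicate 1, 105 in replicate 2 and 52 shared peaks. Mki67 and Cdk6 together held 36 of these 52, and the other 8 genes held 16. In ASC-48h, B1 T1 held 1 peak in the 10 genes, B1 T2 held 1, B2 T1 held 4 and B2 T2 held 13, and no such peak was found in more than 1 ASC library.

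Values are the authors' reads per 20-nt bin, without normalization for depth. For ASC-48h the lists held 8115 and 10759 peaks (B1, T1 and T2) and 7925 and 19448 peaks (B2, T1 and T2), and for C2C12 60540 and 71992. Listed bins began at 6 reads in C2C12, at 4 in B2 T2 and at 5 in the other 3 ASC libraries, so that a gene without a peak may still have had reads below this level. The peaks of the 10 genes were 0.185% (95% exact Clopper-Pearson interval 0.152% to 0.223%) and 0.146% (0.119% to 0.177%) of the C2C12 lists. They were 0.0123% and 0.00929% of the B1 lists (T1, T2) and 0.0505% and 0.0668% of the B2 lists. These intervals cover counting error across peaks only. Of 10 markers of myoblasts or satellite cells 7 held a C2C12 shared peak, against 21.9% of all protein-coding genes. A peak in at least 1 ASC library was held by 7, against 25.1%. Pax7 held 1, 1, 2 and 10 peaks in the ASC libraries and 0 and 1 in C2C12, and Myog held none in any library. None of the 3 blood markers held a peak in any library, 1 of 3 endothelial markers (Pecam1) held 1 in every library, 2 of 3 fibro-adipogenic markers held peaks in both C2C12 libraries and none in ASC-48h, and 2 of 3 markers of mature fibres held 1 or 2 peaks in single C2C12 libraries and 1 in ASC libraries of B2. C2C12 is a cell line, so these markers do not stand for other cell types there. In the sorted ASC-48h cells, the part of other cell types in the values was not tested.

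**Figure D1:**
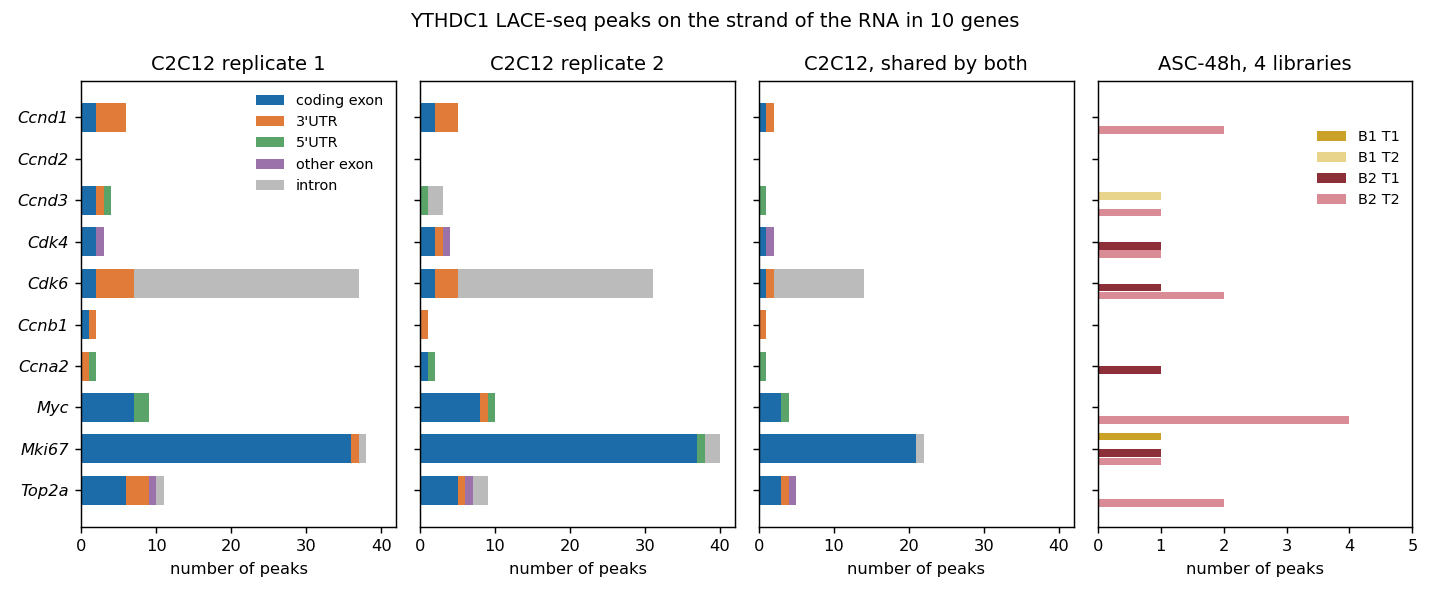
Number of peaks (x axis) on the strand of the RNA in each of the 10 genes (y axis), coloured by the part of the gene in the C2C12 panels and by library in the ASC-48h panel, whose x axis runs to 5. Mki67 peaks were nearly all in coding exons, Cdk6 peaks mostly in introns, Ccnd2 had none, and the ASC libraries held at most 4 peaks in a gene.

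The sequences under the strongest shared peak of 6 genes and under both shared peaks of Ccnd1 are given first, as the letters at the called peaks. Each is the 20-nt bin with 5 nt on either side, on the strand of the RNA, 5′ to 3′, from mm9. Capitals mark GGAC, the core of the sequence in which m6A is most often found, wherever it falls inside these letters.
Ccnd1 3′UTR: ctggctctgtgcctttctattaGGACtttt
Ccnd1 coding exon 2: cttcctgtccctggagcccttgaagaagag
Ccnd3 5′UTR: aGGACtcgctaacccgcactcttgctctca
Cdk4 coding exon 7: ggtatctctacctcgaggagcctttgcccc
Ccnb1 3′UTR: ctgtctcttggtttgtcaactttcagatct
Ccna2 5′UTR: gtgcacgctctgccgccgacagaaccGGAC
Myc coding exon 2: ctccagcagacagccacgacgatgcccctc
Top2a 3′UTR: tcgaggtgaccatctcatgggcaattgtct
Of these 8 peaks, those of Ccnd1 (3′UTR), Ccnd3 and Ccna2 had GGAC inside the letters shown, and the coding peak of Ccnd1 had it further out, within 20 nt of the bin.

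Ccnd1, the D-type cyclin of the early response to growth signals (ENSMUSG00000070348.4, chr7:152115836-152125774, minus strand), held 6 peaks in replicate 1 and 5 in replicate 2, of which 2 were shared. The stronger shared peak, at chr7:152116881-152116900 in the 3′UTR, 1621 nt after the stop codon, had 9 reads per bin in replicate 1 and 10 in replicate 2. B2 T2 held a peak of 4 reads in the same bin, so this was the 1 place in an exon of the 10 genes with a peak in both C2C12 libraries and an ASC library. The other shared peak, at chr7:152123921-152123940 in exon 2, had 9 and 7 reads. The difference between the means of these peaks, 9.5 ± 0.71 and 8.0 ± 1.4 (SD, n = 2), was close to the spread between the libraries. A further pair of peaks lay in touching bins of the last exon (152117961 with 7 reads in replicate 1, 152117941 with 7 in replicate 2), and another in exon 4 (152120021 with 6, 152120001 with 8). These were not counted as shared, because the bins touched without overlap. Oraov1 overlaps the gene on the opposite strand. B2 T2 also held a peak of 4 reads in the 5′UTR that no other library held.

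Ccnd2 (chr6:127075797-127101066), with 5701 nt of exon and 4556 nt of 3′UTR in the annotation, had 0 peaks in each of the 4 ASC libraries and 0 in each C2C12 library, on either strand. Extension of the gene by 10000 nt past its 3′ end added no shared peak. The lincRNA 9330179D12Rik overlaps Ccnd2 on the opposite strand. Ccnd3 (chr17:47642000-47736632) held 4 peaks in replicate 1 and 3 in replicate 2. Its 1 shared peak, in the 5′UTR at chr17:47730561-47730580, had 7 and 6 reads, close to the lowest number listed. A 3′UTR peak of 10 reads at chr17:47736421-47736440 was in replicate 1 alone. B1 T2 and B2 T2 each held 1 intronic peak of Ccnd3, of 5 and 4 reads, at different places. Shared peaks thus lay in the 3′UTR and a coding exon of Ccnd1 and in the 5′UTR of Ccnd3, with none in Ccnd2. With so few peaks, 2, 1 and 0, this does not show that the D-type cyclins differ. The Ccnd3 peak was lost when at least 8 reads per bin were asked in C2C12.

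Cdk4, the G1 kinase of the D-type cyclins (chr10:126500590-126504976), held 3 and 4 peaks in the C2C12 libraries, of which 2 were shared. The stronger, in coding exon 7 at chr10:126503201-126503220, had 8 reads in replicate 1 and 14 in replicate 2 (11 ± 4.2, SD, n = 2). The other, at chr10:126502581-126502600, had 10 and 8 reads and lay in an exon of noncoding transcripts of the gene, outside the exons of the main transcript. The means differed by less than the spread of the stronger peak. The strongest replicate 1 peak of Cdk4, with 13 reads in exon 8, 66 nt before the stop codon, was not in replicate 2, whose nearest peak lay 14 nt after the stop codon with 8 reads. B2 T1 held a coding peak of 7 reads in exon 5. B2 T2 held one of 4 reads in the bin that covers the stop codon, next to that replicate 2 peak and without overlap. Tspan31 overlaps the 3′ end of Cdk4 on the opposite strand.

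Ccnb1, the mitotic cyclin (chr13:101548605-101556525), held 2 peaks in replicate 1 and 1 in replicate 2. Its shared peak, in the 3′UTR at chr13:101549241-101549260, 382 nt after the stop codon, had 14 and 9 reads (11.5 ± 3.5, SD, n = 2). Ccna2, the S phase cyclin (chr3:36463788-36471072), held 2 peaks in each C2C12 library, and its shared peak, in the 5′UTR at chr3:36470761-36470780, had 6 reads in both. B2 T1 held a Ccna2 peak of 5 reads at chr3:36470701-36470720 in the coding part of the same exon, next to a replicate 2 peak of 8 reads and without overlap. No ASC library held a Ccnb1 peak. Exosc9 overlaps Ccna2 on the opposite strand.

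Myc (chr15:61816946-61821929), which has 3 exons in its main transcript of 2338 nt, held 9 peaks in replicate 1 and 10 in replicate 2. Of its 4 shared peaks, 3 lay in exon 2 and 1 in the 5′UTR of exon 1. The strongest, at chr15:61819061-61819080 near the start of the coding sequence, had 13 and 11 reads. The next, at chr15:61819481-61819500 in exon 2, had 8 and 12 reads and held GGAC followed by T within 20 nt. The 5′UTR peak, at chr15:61817221-61817240, had 9 and 10 reads. The means, 12 ± 1.4, 10 ± 2.8 and 9.5 ± 0.71 (SD, n = 2), showed the first peak above the 5′UTR peak in both libraries, while the second lay within its own spread of both. Exon 2 held 7 peaks in replicate 1 and 5 in replicate 2, while exon 3, of 1005 nt, held 0 and 4. The C2C12 libraries therefore differed on the last exon of Myc, where replicate 2 held peaks of 6 to 8 reads and replicate 1 had none listed.

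Myc was also the gene with the most ASC peaks, 4 in B2 T2 and 0 in the other 3 ASC libraries. Of these, a coding peak of 7 reads at chr15:61819241-61819260 lay on a replicate 1 peak of 11 reads. A coding peak of 5 reads at chr15:61819701-61819720 lay on a replicate 1 peak of 6 reads. A 3′UTR peak of 5 reads at chr15:61821561-61821580 lay on a replicate 2 peak of 6 reads. None of these was in both C2C12 libraries. The fourth, with 4 reads, lay in an intron without a C2C12 peak.

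Top2a (chr11:98854257-98885503) held 11 peaks in replicate 1 and 9 in replicate 2, of which 5 were shared. Equal highest by mean were a peak in a 3′UTR of another transcript at chr11:98854941-98854960, with 10 and 11 reads, and a peak at chr11:98878341-98878360, with 14 and 7 reads. The latter overlapped SNORA32, a small nucleolar RNA gene on the same strand at chr11:98878345-98878466 inside Top2a. Reads there cannot be assigned to Top2a rather than to SNORA32, and B2 T2 held a peak of 4 reads on the same small RNA. The third, in exon 18 at chr11:98868521-98868540, had 8 and 12 reads. The last 2 shared peaks lay in exon 26 (9 and 8 reads) and exon 34 (7 and 9 reads). SNORA42 overlaps Top2a on the opposite strand.

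**Figure D2:**
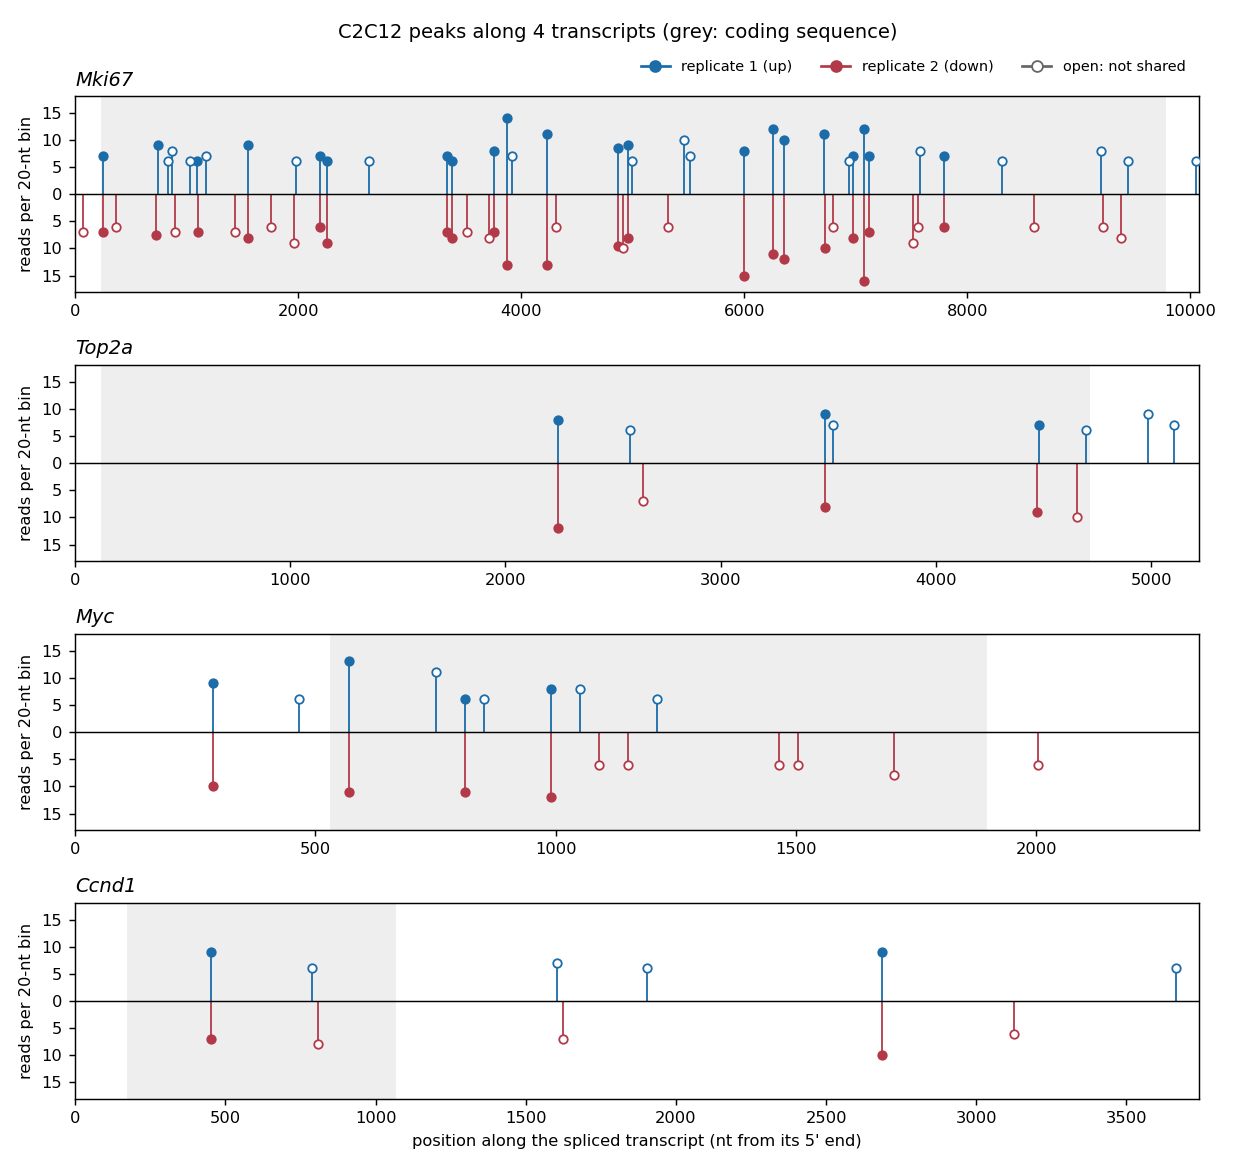
Reads per 20-nt bin of C2C12 peaks (y axis; replicate 1 up, replicate 2 down) along the main spliced transcripts of Mki67, Top2a, Myc and Ccnd1 (x axis, nt from the 5′ end), with the coding sequence in grey and peaks of 1 library alone as open points. Peaks outside the exons of the main transcript are not drawn. Mki67 peaks ran over the whole coding sequence, and the last part of Myc held peaks of replicate 2 alone.

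Mki67, the gene of the proliferation marker Ki-67 (ENSMUSG00000031004.7, chr7:142881471-142908062, minus strand), held the most peaks of the 10 genes, 38 in replicate 1, 40 in replicate 2 and 22 shared. Of the 22, 21 lay in coding exons and 1 in an intron. Exon 12, the longest exon with 6836 nt, held 15 of the 22, or 68.2% (95% exact Clopper-Pearson interval 45.1% to 86.1%), while it makes up 67.9% of the transcript. With every peak counted, the share of shared peaks in this exon was thus close to its share of the length. The 22 include the intronic peak, and sets of 7 and 3 peaks in exon 12 lie at repeated sequence. The closeness therefore depends on how peaks are counted. The 3 strongest peaks, all in exon 12, were at chr7:142888141-142888160 (12 reads in replicate 1 and 16 in replicate 2), chr7:142891341-142891360 (14 and 13) and chr7:142890981-142891000 (11 and 13). Their means, 14 ± 2.8, 13.5 ± 0.71 and 12 ± 1.4 (SD, n = 2), lay within the spread of the first. Outside exon 12, exon 6 held 3 shared peaks, exon 10 held 2 and exon 1 held 1. B1 T1, B2 T1 and B2 T2 each held 1 Mki67 coding peak, of 5 reads, at 3 different places, none at a C2C12 peak.

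Exon 12 of Mki67 encodes the repeats for which Ki-67 is known, and the peaks recurred at the same place in successive repeats. A set of 7 shared peaks had a stretch of at least 15 nt in common with another of the set, and 6 of them lay at copies of 1 sequence. These 6 began 13 to 23 nt before the same 17-nt stretch, and 4 of the distances from one peak to the next in this set were 360 nt. Their letters are given aligned on that stretch, on the strand of the RNA, with the 20-nt bin in capitals where it falls inside the 30 nt shown.
Mki67 at 142888141: cctggatgGCTTCCAAGAACTCTTCCAAac
Mki67 at 142888501: cctggatggctTCCAAGAACTCTTCCAAAC
Mki67 at 142888861: ccTGGATGGCTTCCAAGAACTCttccaaac
Mki67 at 142889221: cctggATGGCTTCCAAGAACTCTTTcaaac
Mki67 at 142890981: cctggatggcttCCAAGAACTCTTCCAAAC
Mki67 at 142891341: cctggatggcttCCAAGAACTCTTCCAAAC
The 7 peaks had 7 to 14 reads in replicate 1 and 7 to 16 in replicate 2. A second set of 3 shared peaks, with 7 to 12 and 7 to 11 reads, shared another stretch of the repeats. The exact letters of a bin in the first set were found 1 to 6 times in the genome. Reads were placed at up to 10 positions each with up to 2 mismatches, so that 1 read could count at several copies, and its part in these values was not tested. With each set of repeated peaks in Mki67 and Cdk6 counted once, the 52 shared peaks became 38.

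Cdk6, the partner kinase of Cdk4 (ENSMUSG00000040274.5, chr5:3343893-3523218, plus strand), was the gene with mostly intronic peaks. It held 37 peaks in replicate 1, 31 in replicate 2 and 14 shared, of which 12 were intronic, 1 lay in the coding part of exon 2 and 1 in the 3′UTR. Of the 12 intronic peaks, 7 lay in 1 stretch of 2620 nt at chr5:3435881-3438500, 6723 to 9323 nt from the nearest exon. This stretch held 15 of the 37 replicate 1 peaks (6 to 17 reads) and 18 of the 31 replicate 2 peaks (6 to 10 reads), and no ASC peak. The strongest shared peaks of the gene were all there, at chr5:3437821-3437840 (17 and 9 reads), chr5:3438481-3438500 (15 and 8) and chr5:3435881-3435900 (14 and 7). Replicate 1 was higher at 6 of the 7 peaks, while at the 10 repeated peaks of Mki67 replicate 1 was higher at 4, replicate 2 at 5, and 1 was equal.

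The stretch is a tandem repeat. Letters 36 nt apart were equal at 78.3% of its positions, while the median over all distances from 1 to 100 nt was 24.7%. The bins of the 7 shared peaks began 3 nt before to 5 nt after the same place of the repeat unit, as the aligned letters of 3 of them show, with the bin in capitals.
Cdk6 at 3437821: tgTCTAAGGTTACCCGTGCTCTgcagtgtg
Cdk6 at 3438481: tgtCTAAGGTTACCCGTGCTCTGcagtgtg
Cdk6 at 3435881: tgtcTAAGGTTACCCGTGCTCTGCagtgtg
The exact letters of each bin occurred 30 times in the genome, and 62 to 66 copies with up to 2 mismatches lay within Cdk6. With more copies than the 10 positions kept per read, the copy that the reads came from cannot be told apart from the others. Outside the stretch Cdk6 held 7 shared peaks. The 3′UTR peak, at chr5:3522261-3522280, had 8 and 9 reads, the exon 2 peak had 6 in both, and the intronic peak nearest to an exon, 19 nt away at chr5:3344081-3344100, had 7 and 6. B2 T2 held a peak of 4 reads in this last bin, whose letters occur 17 times in the genome. B2 T1 held 1 other Cdk6 peak and B2 T2 another, both intronic without a C2C12 peak. Gm17590 overlaps Cdk6 on the opposite strand.

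**Figure D3:**
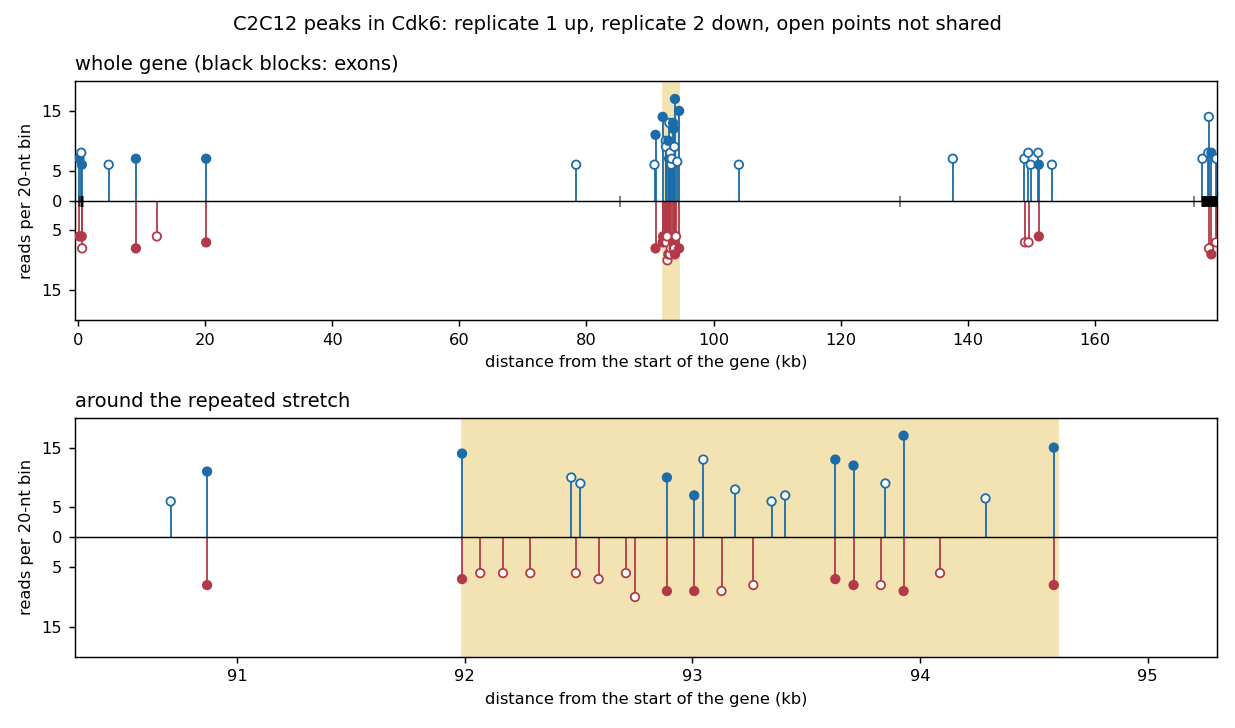
Reads per 20-nt bin of C2C12 peaks in Cdk6 (y axis; replicate 1 up, replicate 2 down) against distance from the start of the gene in kb (x axis), for the whole gene and around the repeated stretch (shaded), with exons as black blocks and peaks of 1 library alone as open points. The shaded 2620 nt held 15 replicate 1 and 18 replicate 2 peaks, and 7 of the 14 shared peaks.

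Over the 10 genes, 30 of the 52 shared peaks (57.7%, 95% exact Clopper-Pearson interval 43.2% to 71.3%) lay in coding exons, 13 in introns (25%, 14.0% to 38.9%), 4 in 3′UTRs (7.69%, 2.14% to 18.5%), 3 in 5′UTRs and 2 in other exons. Over all protein-coding genes, 42.2% of 19234 shared peaks lay in coding exons, 32.3% in introns and 19.6% in 3′UTRs. The 4 peaks in 3′UTRs were those of Ccnd1, Cdk6, Ccnb1 and Top2a. Mki67 supplied 21 of the 30 coding peaks, and without Mki67 and Cdk6 the 3′UTR share was 18.8% (3 of 16). Of the 13 intronic peaks, 12 were in Cdk6 and 1 in Mki67, and 1 of the 13 lay within 200 nt of an exon. The letters of the Mki67 intronic peak occur 23 times in the genome.

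Per kb, coding exons of the 10 genes held 1.33 shared peaks (95% exact Poisson interval 0.895 to 1.89), 3′UTRs 0.257 (0.0701 to 0.659) and introns 0.0379 (0.0202 to 0.0648). The interval of coding exons lay above that of 3′UTRs, and both lay above that of introns. The separation of the intervals of coding exons and 3′UTRs rested on Mki67. Without Mki67 coding exons still held more, 0.688 per kb (0.315 to 1.31) against 0.262 (0.0715 to 0.672) in 3′UTRs, but the intervals overlapped. Without Cdk6, introns held 1 shared peak, or 0.00597 per kb (0.000151 to 0.0332). Over all protein-coding genes, with or without peaks, these densities were 0.226, 0.141 and 0.00661. Per kb of exon, Mki67 held 2.08 shared peaks (1.29 to 3.19), a density above that of 90.4% of the 4891 genes with a shared peak, and Myc held 1.47 (0.401 to 3.77), above 86.1%. With each set of repeated peaks of Mki67 counted once, its density was 1.29 (0.687 to 2.21), above that of 84.0% of these genes, whose own repeats were not merged. Cdk4, Top2a, Cdk6, Ccnd1 and Ccnd3 followed with 0.616, 0.551, 0.535, 0.522 and 0.443, and Ccna2 and Ccnb1 with 0.285 and 0.237. The median of the genes with a shared peak was 0.312, with 7 of the 9 members above it and 2 below. Among the members with a shared peak, the interval of Mki67 lay above that of Top2a (0.179 to 1.286) alone. It overlapped those of the others, and with repeats counted once that of Top2a too. The intervals of the members other than Mki67 overlapped each other.

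**Figure D4:**
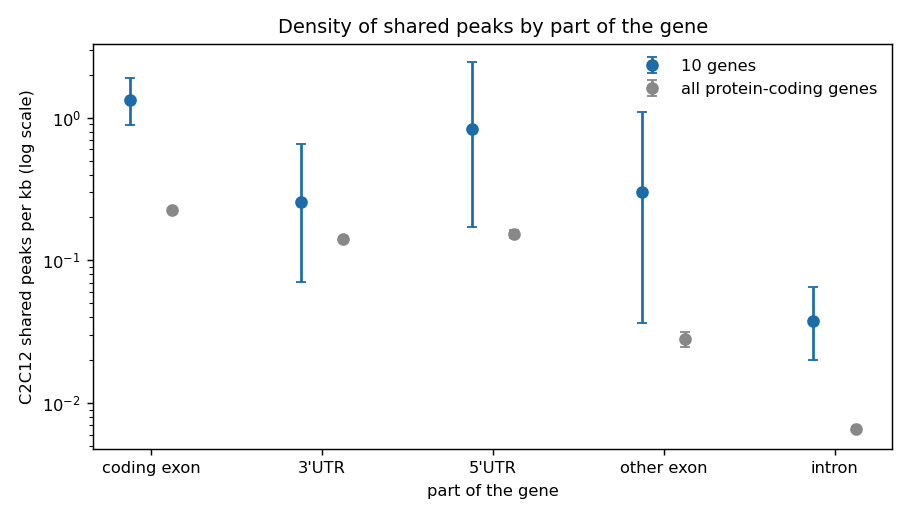
C2C12 shared peaks per kb (y axis, log scale) by part of the gene (x axis) in the 10 genes and in all protein-coding genes, with exact 95% Poisson intervals for counting error. Coding exons of the 10 genes held 1.33 per kb and 3′UTRs 0.257, and the intervals of the 10 genes were wide outside coding exons.

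Replicate 2 held 52 of the 112 replicate 1 peaks of the 10 genes, or 46.4% (95% exact Clopper-Pearson interval 37.0% to 56.1%), and the share over all protein-coding genes was 45.5%. The share rose with the number of reads. It was 33.3% for replicate 1 peaks under 8 reads, 51.9% from 8 to under 10 and 72% at 10 or more, against 32.6%, 56.8% and 79.8% over all protein-coding genes. The shares of all genes lay within the 95% intervals of the 10 genes at each of these levels. Of the replicate 1 peaks with at least 10 reads, 7 had no overlapping replicate 2 peak, among them those of Cdk4 (13 reads), Ccnd3 (10 reads) and Myc (11 reads) named above.

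The mean of both libraries ran from 6.0 to 14.0 reads over the 52 shared peaks, with a median of 8.5, and the SD of a peak ran from 0 to 5.66 with a median of 0.707. Replicate 1 was higher at 24 peaks, replicate 2 at 21, and 7 were equal. Across these 52 peaks, which are not independent replicates and share 2 libraries, Pearson's r of log2 reads was 0.31 and Spearman's rho was 0.36.

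**Figure D5:**
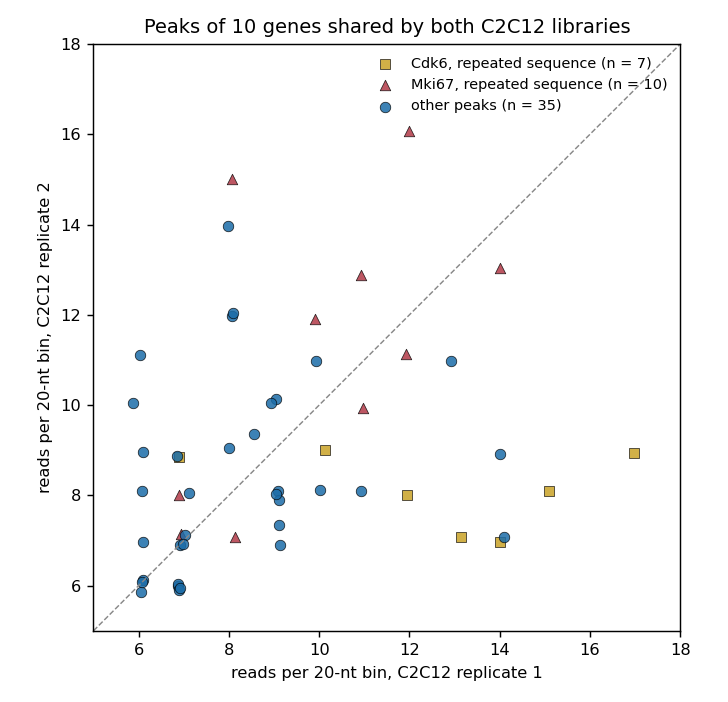
Reads per 20-nt bin of the 52 shared peaks in C2C12 replicate 1 (x axis) and replicate 2 (y axis), with points shifted by up to 0.15 to show ties and the line of equality dashed. The 7 peaks of the Cdk6 repeat lay mostly below the line, the 10 of the Mki67 repeats on both sides, and the 35 other peaks on both sides.

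GGAC lay within 20 nt of 6 of the 52 shared peaks on the strand of the RNA, or 11.5% (95% exact Clopper-Pearson interval 4.35% to 23.4%). These were both peaks of Ccnd1, 1 each of Ccnd3, Ccna2 and Myc, and the exon 1 peak of Mki67. In exons the share was 15.4% (5.86% to 30.5%), against 22.8% of the 13031 exonic shared peaks of all protein-coding genes, and against 18.1% of the 2390 windows of 60 nt over the exons of the 10 genes. In the exonic peaks of all genes the share on the opposite strand was 23.7%. These shares lay within the interval of the 10 genes. The share rested on Cdk6 and Mki67, and among the 16 shared peaks of the other genes it was 31.25% (5 of 16). GGAC was not within 20 nt of the 13 intronic peaks or of the 10 repeated peaks of Mki67, which are copies of few sequences. GGACT, the longer form, was within 20 nt of 3 of the 52 (5.77%, 1.21% to 15.9%), in Ccnd1, Ccnd3 and Myc. A match is a feature of the sequence, and m6A itself was not measured here. In letters, the bins of the exonic shared peaks were 30.7% C, while the exons of the 10 genes were 23.3% C. The exonic shared peaks of all protein-coding genes were 32.1% C.

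In ASC-48h, 8 of the 10 genes held a peak in at least 1 library (25.1% of all protein-coding genes), and Ccnd2 and Ccnb1 held none. B1 T1 held a peak in 1 of the 10 genes (7.82% of all protein-coding genes), B1 T2 in 1 (10.0%), B2 T1 in 4 (9.13%) and B2 T2 in 7 (18.6%). No member gene held a peak shared by T1 and T2 of B1 or of B2, while 7.74% of all protein-coding genes did. Of the 19 ASC peaks, 17 were in B2 and 2 in B1, and the highest had 7 reads. In B2 T2, whose list starts 1 read lower than the others, 9 of the 13 peaks had 4 reads. With at least 5 reads asked of every ASC library, 10 of the 19 were left. The technical replicates of B2 therefore gave 4 and 13 peaks from the same biological sample, with no peak in common.

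Of the 19 ASC peaks, 9 lay in coding exons, 6 in introns, 2 in 3′UTRs, 1 in a 5′UTR and 1 in another exon. A C2C12 peak of either replicate lay at 5 of them, or 26.3% (95% exact Clopper-Pearson interval 9.15% to 51.2%), while this share was 29.1% of the 14957 ASC peaks of all protein-coding genes. These 5 were the Ccnd1 3′UTR peak, the intronic Cdk6 peak and 3 Myc peaks, all from B2 T2. Both C2C12 libraries held a peak at 2 of them, in Ccnd1 and Cdk6. No test compared ASC-48h with C2C12, because the libraries differ in the number of cells, the number of peaks and the lowest number of reads listed, and these cannot be told apart from the cell type.

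Since the deposited strand is that of the cDNA, peaks deposited on the strand of the gene lie on RNA antisense to it. The 10 genes held 6 such peaks over both C2C12 libraries. Against these stood 217 on the strand of the gene's own RNA (97.3%, 95% exact Clopper-Pearson interval 94.2% to 99.0%). In the ASC libraries there were 2 against 19 (90.5%, 69.6% to 98.8%). Of these peaks 2 places were in both C2C12 libraries, in an intron of Ccnd3 and in the 3′UTR of Cdk4, and each had 7 and 6 reads. The Cdk4 place is also within Tspan31, on the strand of Tspan31 RNA.

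The rest of the cell cycle machinery was described with a list of 71 other genes, also chosen with earlier results of these data known. The list held the E and other cyclins, their inhibitors, E2F factors, replication licensing factors and mitotic regulators. A C2C12 shared peak was found in 30 of the 71 (42.3%), against 21.9% of all protein-coding genes, and the median number per gene was 0. The most were held by Tfdp1, the partner of E2F factors, with 17 (33 peaks in replicate 1 and 34 in replicate 2), and Cdkn1a, the inhibitor p21, with 9 (21 and 18). Ccnl2, a cyclin tied to RNA processing, held 8 (13 and 13), Ccnt2 held 7 (13 and 14) and Ccnt1 held 6 (12 and 20), the T cyclins being partners of a kinase of transcription elongation. Foxm1, a transcription factor of mitotic genes, also held 6 (9 and 17). With every peak counted, Mki67, with 22, held more than Tfdp1, and Cdk6, with 14, held fewer. The counts of Mki67 and Cdk6 include peaks at repeated sequence. With each repeated set counted once, the exons of Mki67 held 13. Repeats in the listed genes were not looked for, so the order of these genes depends on the counting. In ASC-48h, 33 of the 71 (46.5%) held a peak in some library, against 25.1% of all protein-coding genes, and 26 (36.6%) in B2 T2, against 18.6%. A peak shared by T1 and T2 was found in 8 of the 71 (11.3%), against 7.74%. These were E2f3, E2f8, Max and Cdk2 in both B1 and B2, Cdc25c and Plk1 in B1, and Mcm3 and Mybl2 in B2. How often the letters of these peaks occur in the genome was not counted. Max is the DNA-binding partner of Myc, and Cdk2 is a kinase partner of cyclin A2. Max held 1 peak in each ASC library and 7 and 4 in C2C12, while Myc held 0, 0, 0 and 4 in the ASC libraries and 9 and 10 in C2C12.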

How the data were processed

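Adapters and poly(A) tails were trimmed by the authors with Cutadapt 1.15, reads matching pre-rRNA were removed, and the rest were placed on mm9 with Bowtie 1.2.3, at up to 10 positions and with up to 2 mismatches. Handling of duplicate reads was not given in the sources used here. Peaks were called per library with Piranha in 20-nt bins at a p threshold of 0.001, settings that the methods name for ASCs. The deposited signal of a peak is the number of reads per bin, a mean for wider peaks, without normalization. The deposited p-value is Piranha's, unadjusted, and was used only as a filter. Library totals are unknown.

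Peaks were assigned to GENCODE vM1 genes on NCBIM37 (mm9) with Python 3.11.15, numpy 2.4.6, scipy 1.17.1 and pysam 0.24.0, and 10 of 10 checks on simulated lists of 8000 peaks gave the known answer. A peak was given 1 part by its midpoint, in the order coding exon, 3′UTR, 5′UTR, other exon, intron. Distances from the stop codon run from the midpoint of a peak to the last nt of that codon. Copies are exact matches of a 20-nt bin on either strand of the genome. The members and lists were chosen with earlier results of these data known. All members were named, with the 3 strongest shared peaks of each, and from the cell cycle list the 5 genes with the most shared peaks (a tie added Foxm1) and those with an ASC peak shared by T1 and T2. Other peaks and places named were chosen after their values were seen. Intervals cover counting error only, and no test compared conditions.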

Additional observations from a re-analysis of the deposited data

Results flagged for a closer look

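In 5 of the 8 genes with a peak in some ASC library, 1 of the 4 ASC libraries stood apart from the other 3. These were Ccnd1 with 2 peaks in B2 T2, Top2a with 2 in B2 T2, Myc with 4 in B2 T2 and Ccna2 with 1 in B2 T1, against 0 in the other libraries, and Mki67 with 0 in B1 T2 against 1 in each of the others. The rate of 1 in 20 flagged by chance is for continuous values and does not hold for counts this small. A gene with peaks in 1 ASC library alone is always flagged, so the flags follow from the counts. The B2 T2 peaks of Ccnd1 and Top2a all had 4 reads, while the lists of the other ASC libraries start at 5. Peaks deposited on the strand of the gene are left out of the counts on the gene's own RNA. Among them, the intronic place of Ccnd3 and the 3′UTR place of Cdk4 each had a mean of 6.5 reads per bin over both C2C12 libraries.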

How the results depend on the processing

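Of 100 recomputed values, 80 stayed within 1.5 times the count or inside the interval of the share or density. Part of these 80 could not have moved, so their number does not measure stability. Bins lie on a 20-nt grid, so asking for an overlap of 20 nt changes nothing. No peak of the 10 genes was near a run of 10 G, so that filter removes none. Stricter filters also cannot change the absence of peaks shared by T1 and T2. The 52 shared peaks became 23 at p of at most 1e-04, 7 at 1e-05, 26 with at least 8 reads, 32 without peaks whose letters occur more than once, and 16 without Cdk6 and Mki67. Single C2C12 libraries held 105 to 112. The 9 genes became 3 at 1e-05 (Mki67, Top2a and Myc). At 1e-04 or with at least 8 reads, Ccnd3 and Ccna2 held none. The 3′UTR share was 18.75% without Cdk6 and Mki67. The GGAC share was 0% of 7 peaks at 1e-05, 32.7% within 50 nt and 31.25% without Cdk6 and Mki67. The share found again was 28.0% at 1e-05. The 19 ASC peaks became 3 at 1e-04, 3 at 1e-05, 3 with at least 6 reads, 10 with at least 5, and 2 to 17 with 1 biological replicate left out (17 without B1, 2 without B2). Coding exons held 0.688 shared peaks per kb without Mki67 and 0.661 without Cdk6 and Mki67, and exons of Mki67 held 1.29 with each repeat counted once. The cause of these moves was not tested. The alternatives that count each repeat once, leave out Mki67 alone or with Cdk6, count touching bins (62 shared peaks), extend genes by 10000 nt or ask for 5 ASC reads were chosen after seeing the data. No paired analysis was possible because no result comes from a test between groups. The lists start at 4 to 6 reads per bin, which limits what can be seen.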
